A study of Mus musculus with 6 samples.

Results

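The 10 genes described here encode claudins, the membrane proteins of tight junctions: Cldn1, Cldn3, Cldn4, Cldn5, Cldn6, Cldn7, Cldn8, Cldn10, Cldn12 and Cldn18. Every probe set of the Affymetrix Mouse430_2 expression array that named exactly 1 gene, and that gene a member, was taken. This gave 18 of 34945 such probe sets, and 10 of 18193 genes. The arrays measured total RNA of E18.5 embryonic mouse lung, close to birth, with 3 arrays titled wild-type (WT 1 to WT 3) and 3 titled GATA6 KO (KO 1 to KO 3). The series asks which genes the transcription factor GATA6 regulates in the lung. The labels used here call the tissue GATA6 null and give no allele, Cre driver, strain or pooling, nor do they say whether arrays are separate embryos, so the spread between arrays may be technical. The members were chosen by family and partly on the lower values of Cldn18 and Cldn5 in the arrays labelled KO. Every KO minus WT difference of a claudin below is therefore a description with a standard error, and carries no test.

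Claudins of neighbouring cells join into strands that close the space between the cells, and the mixture of claudins in a strand sets which ions and solutes may pass. Some members mainly seal, others form pores selective for charge, and most bind zonula occludens scaffold proteins inside the cell through their tail. In the lung before birth this barrier separates the fluid-filled airspace from the tissue, with claudin-18 characteristic of alveolar cells and claudin-5 of blood vessel endothelium.

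Gata6 itself checked neither the deletion nor the labels. On its brightest probe set the levels were 11.12, 10.26 and 10.42 log2 in WT 1 to WT 3 and 11.58, 11.39 and 11.19 in KO 1 to KO 3, higher in each array labelled KO than in any labelled WT, and where it lies relative to the deleted part is not known here. Levels are log2(intensity + 16) throughout, and a fold computed on that scale understates the change of a dim probe set. Fluidics station 1 washed WT 1 and WT 2, and station 2 the other 4 arrays, so station and label largely coincide. On bright probe sets WT 1, KO 2 and KO 3 carried more signal without a gene name, at -0.56, -0.86 and -0.32 log2 relative to named ones, against -1.57 to -1.68 in the other 3 arrays. In whole lung RNA, fewer cells of a type and less RNA per cell cannot be told apart.

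The promoter windows of Cldn18 and Cldn5 are printed because these are the members that read lower in all 3 arrays labelled KO. RefSeq windows of 250 bases before to 50 after a transcript start, build GRCm38.p6, were found for 9 of the 10 genes, with 14 starts. They were searched on both strands for AGATAA or AGATAG, and for TGATAA or TGATAG, hexamers with the GATA core. Capitals mark them. Each sequence is given 5′ to 3′ in the direction of the gene. Cldn18 lies on the minus strand of chromosome 9 (chr9:99690796-99717267) and has a start at its upstream end and another inside the gene. Their windows are chr9:99717218-99717517 and chr9:99710014-99710313. Cldn5 lies on the plus strand of chromosome 16 (chr16:18776847-18778262), with the window chr16:18776597-18776896.
Cldn18 upstream start: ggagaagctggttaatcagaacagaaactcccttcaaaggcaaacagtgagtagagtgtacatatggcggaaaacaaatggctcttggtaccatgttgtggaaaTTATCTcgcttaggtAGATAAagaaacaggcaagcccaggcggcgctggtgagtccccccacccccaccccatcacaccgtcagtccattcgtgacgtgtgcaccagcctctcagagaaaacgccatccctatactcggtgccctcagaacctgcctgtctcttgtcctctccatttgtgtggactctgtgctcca
Cldn18 inner start: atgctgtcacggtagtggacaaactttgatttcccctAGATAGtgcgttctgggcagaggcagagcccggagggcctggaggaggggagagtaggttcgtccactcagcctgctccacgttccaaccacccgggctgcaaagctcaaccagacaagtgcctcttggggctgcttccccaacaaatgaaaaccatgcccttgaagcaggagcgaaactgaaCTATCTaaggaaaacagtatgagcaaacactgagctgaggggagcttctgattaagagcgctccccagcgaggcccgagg
Cldn5: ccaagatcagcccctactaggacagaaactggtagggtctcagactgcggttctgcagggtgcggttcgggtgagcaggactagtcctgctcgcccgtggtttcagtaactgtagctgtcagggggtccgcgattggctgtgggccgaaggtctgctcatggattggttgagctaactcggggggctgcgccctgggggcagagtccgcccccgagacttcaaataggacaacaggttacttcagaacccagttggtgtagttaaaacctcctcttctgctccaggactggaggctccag

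Both Cldn18 windows held 2 such matches. At the upstream start they began 146 and 131 bases before the start, as AGATAA on the opposite and on the gene's strand. At the inner start they were both AGATAG, and began 213 and 30 bases before it. The Cldn5 window held none. Of the 14 member windows 5 held a match, those of Cldn18, Cldn4, Cldn1 and the upstream start of Cldn10, while 29.8% of all 32851 promoter windows of this length held one. CAAGTG, a word bound by factors of the NKX2 family, was present in 5 of the 14 member windows, the inner Cldn18 start, 1 of Cldn7, both of Cldn10 and that of Cldn1, and in 13.6% of all windows. A match is a string of letters and was not tested as a binding site.

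Cldn18, the claudin of the alveolar lining, read lower in the arrays labelled KO by more than any other member. Its brighter probe set, 1449428_at, read 13.31, 13.22 and 13.48 log2 in WT 1 to WT 3 and 9.18, 11.91 and 9.81 in KO 1 to KO 3. The intensities behind these values were 10138, 9542 and 11387 against 564, 3824 and 884. The 3 arrays labelled WT lay within 0.25 log2 of each other, those labelled KO spread over 2.73, and the groups did not overlap. The difference was -3.04 (SE 0.69, n = 3 each), or 8.20-fold lower.

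The dimmer Cldn18 probe set, 1425445_a_at, read 10.22, 10.71 and 10.94 in the arrays labelled WT and 6.33, 8.67 and 5.91 in those labelled KO. Its difference was -3.65 (SE 0.74), and again no arrays overlapped. On both probe sets KO 2 stood closest to the arrays labelled WT, 2.69-fold and 3.87-fold below their mean. KO 1 and KO 3 were 17.8-fold and 11.5-fold below it on the brighter probe set and 19.6-fold and 26.3-fold on the dimmer one. Without KO 2 the differences were -3.84 and -4.50, and without KO 1 they were -2.48 and -3.33.

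Markers of alveolar type I cells, which cover most of the gas exchange surface and carry Cldn18, also had lower means. Of 14 listed markers all 14 had a lower mean in the arrays labelled KO, with a median difference of -1.12 where the median over all genes was 0.0025. Over all 18193 genes 7569 had a lower mean. For 3 of the 14 the groups did not overlap, against 3.81% of all genes in this direction. None passed limma at an adjusted p of 0.05 (4 had an unadjusted p under 0.05, as did 808 of all 18193 genes). The summed intensity of the list ran from 93418 to 122677 in the arrays labelled WT and from 58704 to 103573 in those labelled KO. The marker closest to the floor was Rtkn2 in KO 1, at 4.69 log2. The order within the KO label was that of the brighter Cldn18 probe set: KO 1 was the lowest of the 3 for all 14 markers and KO 2 the highest for 12. How often this order occurs over all genes was not counted. The same order was present among 5 mesothelial markers, of which 4 had a lower mean (median -0.22): KO 1 was the lowest of its label for all 5 and KO 2 the highest for all 5. The size was not shared by the whole list. Akap5, a kinase anchoring protein, differed by -2.12 (SE 0.51), Ager, a receptor abundant on these cells, by -0.45 (SE 0.23), and Cav1, the caveolar coat protein, by -0.11 (SE 0.13). The list was written with earlier results of these arrays known, and its part in the Cldn18 difference was not tested.

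Alveolar type II cells, which secrete surfactant, also carry Cldn18. Of 14 listed markers 12 had a lower mean in the arrays labelled KO, with a median of -0.26, where 7569 of all 18193 genes did. In 2 all arrays labelled KO lay lower and in 1 higher, against 3.81% and 5.89% of all genes. None passed limma (3 had an unadjusted p under 0.05, as did 808 of all 18193 genes). Sftpc, the surfactant protein most restricted to these cells, had intensities of 49614, 56822 and 51647 in WT 1 to WT 3 and 6700, 54629 and 42194 in KO 1 to KO 3, a log2 difference of -1.08 (SE 0.80) with KO 1 far below the other 5 arrays. Abca3, their lipid transporter, differed by -2.73 (SE 1.35), with KO 3 lowest, and Sftpd, a secreted collectin, by 0.99 (SE 0.23). Sftpa1 and Sftpb, which open the list, differed by 0.74 (SE 0.55) and -0.08 (SE 0.23). The summed intensity of the list ran from 115611 to 166711 in the arrays labelled WT and from 62562 to 176729 in those labelled KO. KO 2 was the highest of its label for 12 of the 14, and KO 1 the lowest for 7, neither of which was counted over all genes. Slc34a1 alone read near the floor, and is 1 of the 12 with a lower mean only by -0.02 (SE 0.02). The part of this list in the Cldn18 difference was not tested either.

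Cldn5, the sealing claudin of blood vessels that is also made by alveolar cells, was the other member that read lower in all 3 arrays labelled KO. It read 11.20, 11.44 and 11.23 log2 in WT 1 to WT 3 and 10.46, 10.85 and 10.46 in KO 1 to KO 3. The difference was -0.70 (SE 0.14, n = 3 each), or 1.63-fold lower, and the groups did not overlap, with 0.35 log2 between WT 1 and KO 2. It ran from -0.83 without KO 2 to -0.63 without WT 2 when each array was left out in turn.

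Endothelial markers also read lower. Of 18 listed, all 18 had a lower mean in the arrays labelled KO, where 7569 of all 18193 genes did. Their differences ran from -0.91 to -0.07 with a median of -0.58, so the size was not shared by the whole list. In 2 of the 18 the groups did not overlap, against 3.81% of all genes in this direction. None passed limma over all probe sets (4 had an unadjusted p under 0.05, as did 808 of all 18193 genes). Pecam1, an adhesion molecule of endothelial junctions, differed by -0.81 (SE 0.40), Cdh5, their cadherin, by -0.91 (SE 0.56), and Kdr, the main VEGF receptor, by -0.68 (SE 0.25). The summed intensity of the list ran from 16737 to 24499 in the arrays labelled WT and from 14909 to 17529 in those labelled KO, with no marker at the floor.

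The arrays were ordered differently for Cldn5 than for most of these markers. WT 1 was the lowest array of its label for 16 of the 18 endothelial markers and KO 1 the highest of its label for 12. Neither was counted over all genes. For Cldn5 WT 1 was also the lowest of its label, but by 0.24 log2 from the highest, against 1.53 for Cdh5 and 1.18 for Pecam1. Among the arrays labelled KO, KO 1 and KO 3 were level at 10.46, below KO 2. For 2 of the 18 markers, Esam and Icam2, named here after their values were seen, KO 2 was also the highest of its label. With the signal without a gene name as a covariate the Cldn5 difference was -0.69. The part of the endothelial markers in it was not tested.

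**Figure D1:**
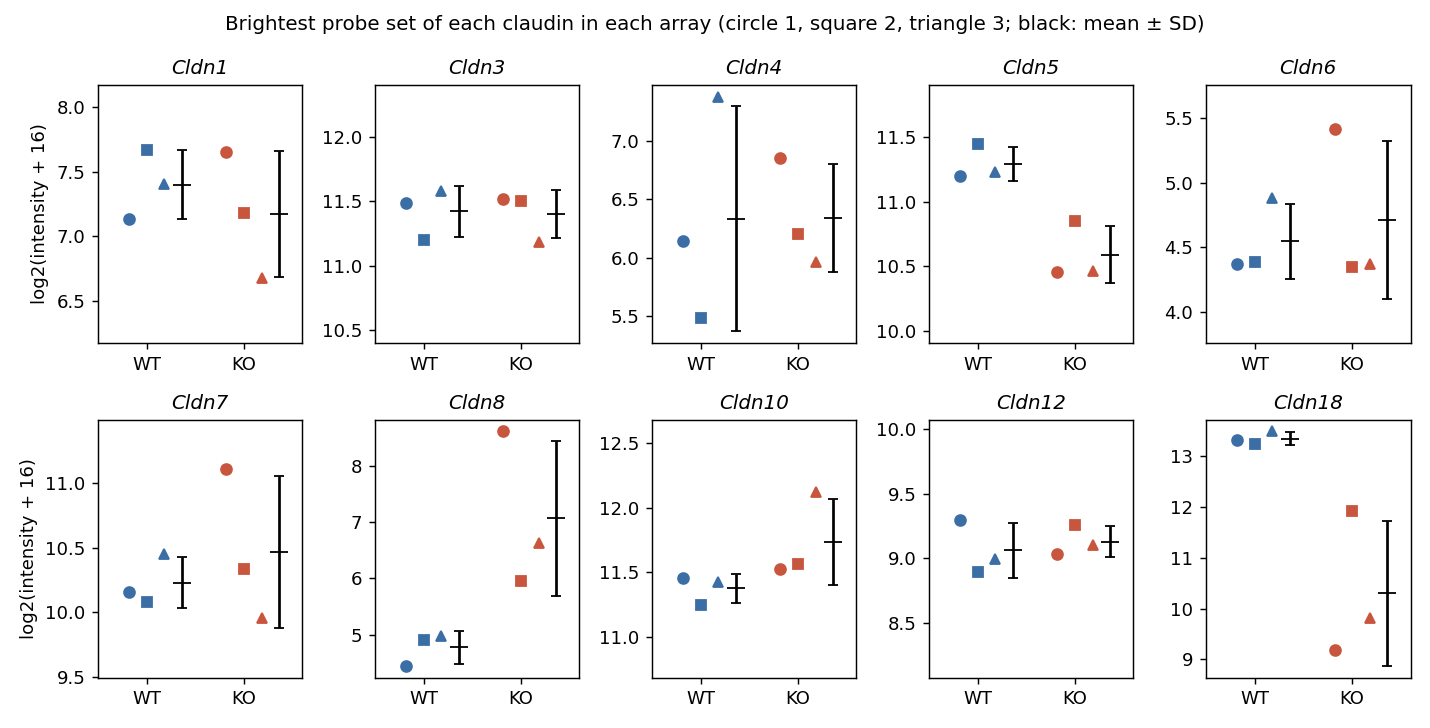
Level of the brightest probe set of each claudin, as log2(intensity + 16) on the vertical axis, in the 3 arrays labelled WT (blue) and the 3 labelled KO (red), with the mean and SD in black; each panel has its own scale spanning at least 2 log2 units. Cldn18 and Cldn5 lie lower in every array labelled KO and Cldn8 and Cldn10 higher, while the other 6 overlap.

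Cldn8, a sealing claudin best known from the distal tubule of the kidney, read higher in all 3 arrays labelled KO, from a level near the floor. It read 4.44, 4.90 and 4.97 log2 in WT 1 to WT 3, intensities of 5.69, 13.9 and 15.4, and 8.63, 5.96 and 6.63 in KO 1 to KO 3, intensities of 379, 46.3 and 83.2. KO 1 alone lay 14.5-fold above the WT mean, KO 2 and KO 3 lay 2.28-fold and 3.63-fold above it, and no arrays overlapped. The difference of 2.30 (SE 0.69, n = 3 each) depends on the scale, at 3.28 with a pseudocount of 1 and 1.35 with 64, and it was 1.53 without KO 1. With fluidics station as a block it was 2.10.

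Cldn10, whose splice forms build pores for cations or for anions and which in the lung marks club cells, read slightly higher. Its probe set read 11.46, 11.25 and 11.42 in the arrays labelled WT and 11.53, 11.56 and 12.12 in those labelled KO. The groups were separated by 0.07 log2 between WT 1 and KO 1, and KO 3 stood above the other 5 arrays. The difference was 0.36 (SE 0.18), or 1.28-fold, and without KO 3 it was 0.17. The suffix of its probe set, 1426147_s_at, marks probes shared by several transcripts, so the splice forms were not separated. Of 10 listed airway epithelium markers 8 had a higher mean, with a median of 0.30, where 10624 of all 18193 genes had one. In 4 of the 10, Cyp2f2 among them, all arrays labelled KO lay higher and in 0 lower, against 5.89% and 3.81% of all genes. None passed limma (1 had an unadjusted p under 0.05, as did 808 of all 18193 genes), and Krt5, 1 of the 8, read near the floor. Cyp2f2, an enzyme of club cells, differed by 1.36 (SE 0.60) and Scgb1a1, their main secreted protein, by -0.42 (SE 0.30).

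The remaining 6 claudins overlapped between the labels on every probe set, with differences between -0.23 and 0.24. Cldn3, a sealing claudin of alveolar type II and airway cells, varied little between arrays. Its brightest probe set read 11.48, 11.20 and 11.58 in WT 1 to WT 3 and 11.52, 11.50 and 11.19 in KO 1 to KO 3 (difference -0.02, SE 0.15). Its other 3 probe sets differed by -0.04, -0.08 and -0.09. KO 3 was the lowest of the 6 arrays on all 4 probe sets, 2 of which are of a design that can bind related transcripts.

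Cldn4, which tightens the epithelium and rises in injured lung, varied more between arrays of the same label than between labels. Its levels were 6.14, 5.48 and 7.38 in the arrays labelled WT and 6.86, 6.21 and 5.96 in those labelled KO (difference 0.01, SE 0.54). WT 2 was the lowest and WT 3 the highest of all 6, so the value depends on which arrays stand for the wild type. Against WT 3 alone, the station of the arrays labelled KO, it was -1.04. Without WT 3 it was 0.53.

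Cldn7, a claudin found along the whole side wall of epithelial cells, was highest in KO 1. Its levels were 10.16, 10.08 and 10.45 for the WT label and 11.11, 10.33 and 9.95 in those labelled KO, a difference of 0.24 (SE 0.30) that was -0.09 without KO 1. Cldn6, a claudin of early embryonic epithelium, stood above the floor in the same array. It read 4.37, 4.39 and 4.88 in WT 1 to WT 3 and 5.42, 4.34 and 4.37 in KO 1 to KO 3 (difference 0.16, SE 0.32), and only KO 1 and WT 3 had an intensity above 10, at 26.8 and 13.5.

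Cldn1, needed for the water barrier of the skin, read 7.13, 7.67 and 7.40 on its brightest probe set in the arrays labelled WT and 7.65, 7.18 and 6.68 in those labelled KO (difference -0.23, SE 0.30). The value turned to 0.02 without KO 3. Of its other 3 probe sets, 1450014_at differed by -0.11 (SE 0.17) with intensities up to 19.9, and the other two stayed near the floor, with intensities of at most 4.90. Cldn12, which lacks the usual tail for scaffold binding, had intensities of 613, 458 and 494 in WT 1 to WT 3 and 506, 596 and 532 in KO 1 to KO 3 (log2 difference 0.07, SE 0.14), and its dimmer probe set differed by -0.05 (SE 0.17).

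On the brightest probe sets, the array labelled KO 1 was the highest of its label for 6 members, Cldn1, Cldn3, Cldn4, Cldn6, Cldn7 and Cldn8, and the lowest for the other 4. KO 1 was also the highest of its label for 9 of 13 general epithelial markers, among them Epcam, an epithelial adhesion molecule (10.37 in KO 2 and 11.36 in KO 1). This array was also highest for 20 of 32 tight junction genes outside the claudins and 12 of 18 endothelial markers. So it was for 13 of 19 adherens junction and desmosome genes. The count was 3 of 10 for airway, 2 of 14 for type II, 0 of 14 for type I and 0 of 5 for mesothelial markers. For the other claudins it was 2 of 14. Over all genes such counts were not made, so nothing is read from them about a list. WT 3 was the highest of its label for 6 claudins and for 9 of the 13 epithelial markers. Between the labels the 13 markers had a median difference of 0.12, and their summed intensity ran from 36252 to 38954 and from 35250 to 41578.

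**Figure D2:**
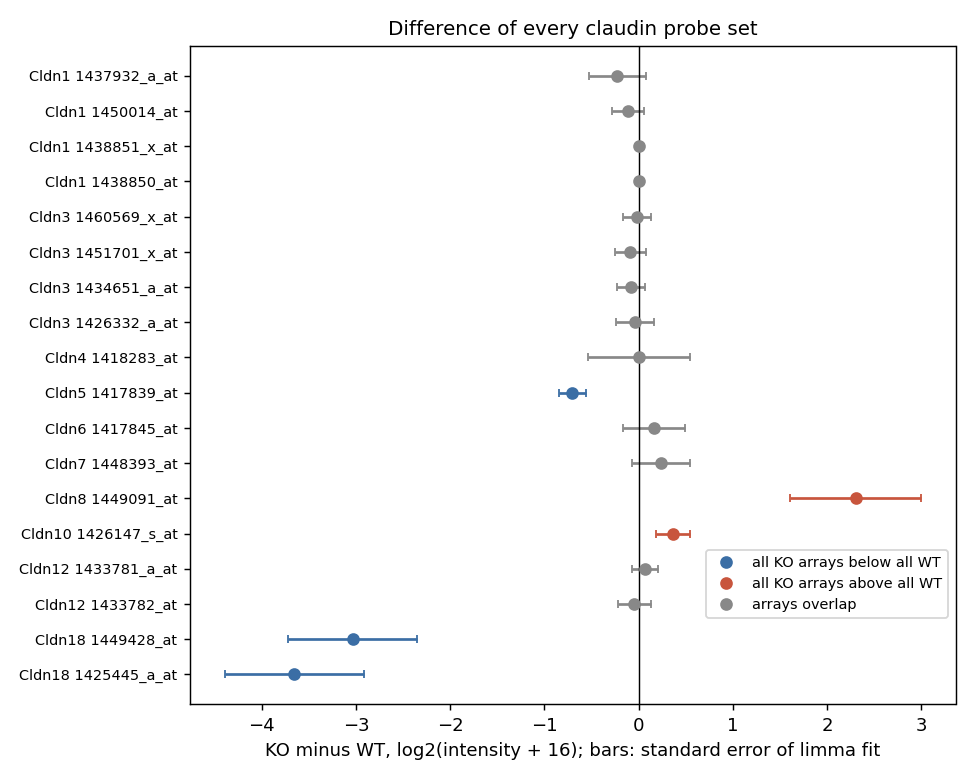
KO minus WT difference on the horizontal axis, in log2(intensity + 16), for all 18 claudin probe sets, with the standard error of the limma fit as bars. The 3 blue points (Cldn5 and both Cldn18 probe sets) had all arrays labelled KO below all labelled WT, the 2 red points (Cldn8 and Cldn10) had them above, and the 13 grey points overlapped.

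The summed intensity of the 10 brightest probe sets was 18823 to 21763 in the arrays labelled WT and 10752 to 13645 in those labelled KO. Without Cldn18, which made up 9542 to 11387 of it in the arrays labelled WT, the other 9 summed to 9281 to 10376 and 9821 to 10629, and the groups overlapped. Of the 18 probe sets 10 had a lower and 8 a higher mean in the arrays labelled KO, and by the brightest probe set 4 genes were lower and 6 higher. The median difference of the 10 genes was 0.04, where that of all genes was 0.0025. Without overlap, 3 of the 18 probe sets lay lower and 2 higher, where 3.35% and 5.35% of all probe sets that name 1 gene did. By the brightest probe set these were 2 and 2 of 10 genes, against 3.81% and 5.89% of all genes. Since the contrast was used in choosing the family, these shares are given for scale and nothing is read from them. Over all 34945 probe sets limma called 1 as lower and none as higher at an adjusted p of 0.05 (0.00286% and 0%), none of them a claudin, and 1297 (3.71%) had an unadjusted p under 0.05. The call, a probe set of 5830444B04Rik with a difference of -0.19 (SE 0.01), was lost without any 1 of the 6 arrays. With station as a block 40 probe sets were called, and with each array centred on its median the 1 call was of another gene and higher.

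Tight junction genes outside the claudins were taken from a list of binding partners, scaffolds and regulators. Of 32 measured genes none passed limma over all probe sets in either direction. An unadjusted p under 0.05 was found for 4, and for 808 of all 18193 genes. In 23 the mean was lower and in 9 higher in the arrays labelled KO, with a median of -0.18 and a range from -1.08 to 0.41. Ocln, the strand protein occludin, differed by -0.22 (SE 0.16) and Marveld2, the protein of corners between 3 cells, by -0.13 (SE 0.27). The scaffold gene Tjp1, also picked out after its value was seen, which encodes a zonula occludens protein that claudins bind, differed by -0.18 (SE 0.14), and its arrays overlapped. All arrays labelled KO lay lower in 3 of the 32 genes and higher in 2, against 3.81% and 5.89% of all genes. The 3 lower ones, named here after their values were seen, were Magi1, a scaffold protein, at -0.60 (SE 0.20), Arhgef2, a protein held at the junction, at -0.47 (SE 0.14), and Amot, which links junctions to Hippo signalling, at -0.56 (SE 0.19).

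Adherens junctions and desmosomes lie beside the tight junction along the cell border. Of 19 of their genes none passed limma over all probe sets, with 11 lower, 8 higher and a median of -0.01. An unadjusted p under 0.05 was found for 2, and for 808 of all 18193 genes. Cdh1, the epithelial cadherin, differed by -0.004 (SE 0.27) and Ctnna1, which ties it to actin, by -0.15 (SE 0.22). All arrays labelled KO lay higher in 2 of the 19 genes and lower in 0, against 5.89% and 3.81% of all genes. The 2 were the desmosomal cadherins Dsg2 and Dsc2, picked out after their values were seen. Dsc2 read 4.91, 4.81 and 4.96 in WT 1 to WT 3 and 6.17, 6.06 and 6.44 in KO 1 to KO 3, a difference of 1.33 (SE 0.14) with an adjusted p of 0.462 in limma. Dsg2 differed by 1.44 (SE 0.36, adjusted p = 0.966 in limma).

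Of the other claudins on the array, 14 genes, none passed limma (0 had an unadjusted p under 0.05, against 808 of all 18193 genes). The mean was higher in the arrays labelled KO for 10, where it was for 10624 of all 18193 genes. In 4 all arrays labelled KO lay higher and in 0 lower, against 5.89% and 3.81% of all genes. The 4 read near the floor, with gaps of 0.0003 to 0.0026 log2 between the labels. Of the 14 genes, 12 had a mean below the median probe set, 6.00 log2. Cldn15, which forms pores for sodium, was 1 of the other two, at 7.65, 7.77 and 7.29 in WT 1 to WT 3 and 6.81, 8.07 and 7.36 in KO 1 to KO 3 (difference -0.15, SE 0.35). Cldn2, another pore former, stayed near the floor on its brighter probe set apart from KO 1, at 5.51 against 4.39 to 4.48 in the other 5 arrays. Its dimmer probe set read 4.30 to 4.31 in every array, KO 1 among them. Cldn15 was picked out after its values were seen. Other claudins that lie close to a member, in build GRCm38.p6, read near the floor where measured, apart from Cldn15, the next claudin after Cldn3 but 1980 kb from it. Cldn9, 137 bases beyond Cldn6, differed by 0.26 (SE 0.11) at 4.73 to 5.25 on its brighter probe set. On its dimmer one it differed by -0.03 (SE 0.03). Cldn16, 91.3 kb from Cldn1, read 4.34 to 4.36, and Cldn13, 29.6 kb from Cldn4, read 4.40 to 4.41. Cldn17, 53.8 kb from Cldn8, was not analysed here. The members Cldn3 and Cldn4 lie 39.3 kb apart on chromosome 5, and Cldn4 spread over 1.90 log2 between arrays labelled WT while Cldn3 spread over 0.38.

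**Figure D3:**
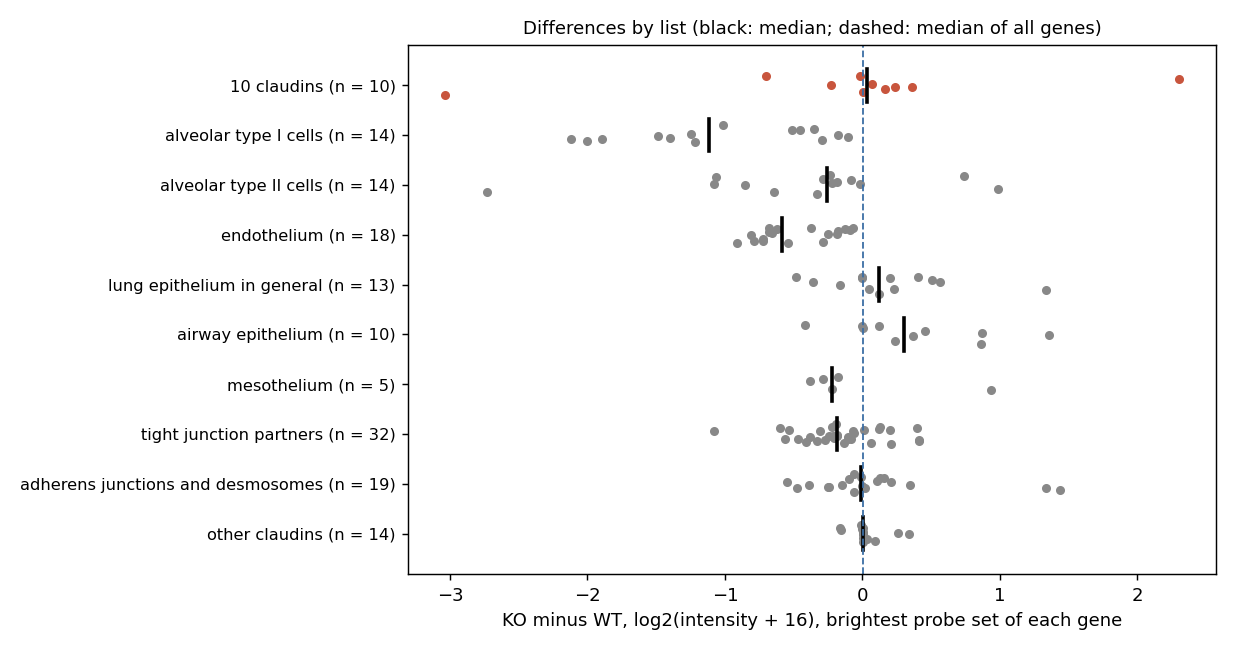
KO minus WT difference on the horizontal axis, in log2(intensity + 16), of the brightest probe set of each gene, for the 10 claudins (red) and the genes of 9 other lists (grey), 1 point per gene, with list medians in black and the median of all genes dashed. The type I cell and endothelial markers all lie below zero (medians -1.12 and -0.58), while the 10 claudins run from -3.04 to 2.30 around a median of 0.04.

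Genes with the array pattern most like that of a claudin were found by the root mean square difference in deviations from each gene's own mean over the 6 arrays. The nearest to Cldn18 was Scd1, a fatty acid desaturase, at 0.52 log2, where Cldn18's own deviation was 1.73. It was followed by Zbtb8b (0.53), the type I cell marker Akap5 (0.54) and Matn4, a matrix protein (0.58). Their KO minus WT differences were -2.67 (SE 0.85), -2.55 (SE 0.73), -2.12 (SE 0.51) and -2.17 (SE 0.63), and in each of them KO 2 was the highest array labelled KO.

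The nearest genes to Cldn5 lay closer in relation to its own deviation of 0.38. Irx1, an Iroquois transcription factor, was at 0.03 log2, and Prickle1, a planar polarity protein, Cavin2, a caveolar protein, and Chst5, a sulphotransferase, were at 0.08, 0.08 and 0.09. Irx1 read 8.28, 8.49 and 8.35 in the arrays labelled WT and 7.59, 7.92 and 7.57 in those labelled KO. The endothelial list of 18 genes holds none of the 4, and which cells make them was not tested. The likeness was chosen as the closest of all 18183 genes outside the family and describes these 6 arrays.

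**Figure D4:**
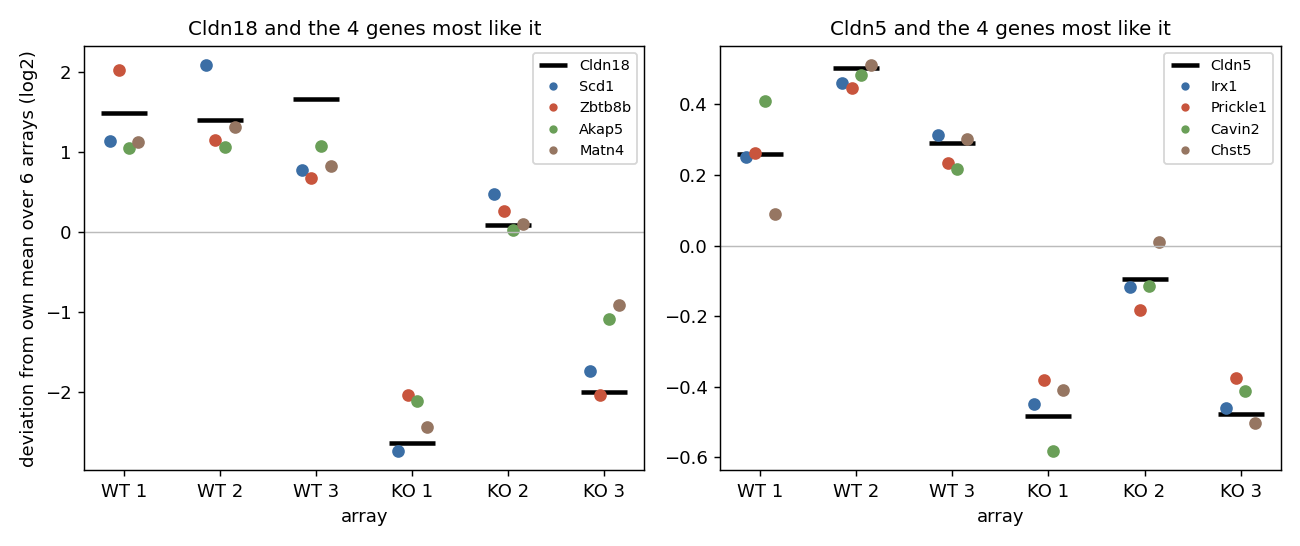
Deviation of each gene from its own mean over the 6 arrays, in log2, by array, for Cldn18 (left, black bars) and Cldn5 (right, black bars) with the 4 genes most like each as coloured points. KO 2 is the highest of the arrays labelled KO for both claudins and all 8 genes, and the points of Irx1 lie close to the Cldn5 bars in every array.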

How the data were processed

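Per the submitters' processing notes GCRMA and MAS5 were used, with no version, role or order, so which of them made the deposited intensities is not stated. The authors' values are deposited as intensities on a linear scale, none negative, with medians from 20.6 to 24.1 per array, and were taken as already normalised between arrays. Depth does not apply to arrays, and their number, 3 per label, limits the precision.

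The table holds 45101 probe sets: 64 are controls, 932 name several genes, and 9160 are unnamed here. The 34945 that named 1 gene were named through the gene IDs of the platform annotation (34741 had a current ID in GRCm38.p6). Values were transformed to log2(intensity + 16). The difference was fitted over all 34945 with limma 3.58.1 in R 4.3.3 (lmFit, eBayes with trend), two-sided, with Benjamini-Hochberg adjustment and a threshold of 0.05. The steps were tested on simulated data. Lists count each gene by its probe set with the highest mean.

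The claudins, the lists and the tests were chosen with earlier results of these arrays known. Named genes were all members. From the tight junction, adherens junction and other claudin lists they were those past the threshold or the first 2 measured. Markers of a cell type beside a member were also named, but not by list order. So were adjacent claudins, and the 4 genes most like Cldn18 and Cldn5. Others are said to be named after their values were seen. Of the markers, Akap5, Cav1, Abca3, Sftpd, Cyp2f2, Scgb1a1 and Cdh5 had the lowest or highest difference of their list, so they show its ends. Array numbers were not treated as a pairing, since residuals of same-numbered arrays correlated at -0.698, 0.0449 and -0.419. Alternatives are given at the end. The station of each array came from the deposited instrument files, whose entries are of other kinds and hold no expression values.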

Additional observations from a re-analysis of the deposited data

How the results depend on the processing

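The median difference of the 10 claudins, 0.04, moved by less than the spread between arrays (SD 0.26) under all 20 alternatives that gave a value, from -0.18 to 0.28, and changed sign in 5. By design it stays at 0.04 with eBayes without trend or robust, the brightest probe set per gene and the replicate block, so these are no checks of it. The station block and station 2 alone give the same estimate, -0.18. The filter on dim probe sets left no value for all 10 genes. Over the same alternatives Cldn18 ran from -3.84 to -2.48 on its brighter and -4.50 to -3.12 on its dimmer probe set, Cldn5 from -0.83 to -0.63, Cldn8 from 1.35 to 3.28 and Cldn10 from 0.17 to 0.46, and none of these 5 changed sign. With station as a block, where the arrays labelled WT are in effect WT 3 alone, they were -3.18, -3.97, -0.64, 2.10 and 0.31. Of the other 13 probe sets each changed sign under at least 1 alternative. The counts of tight junction, adherens junction and other claudin genes past the threshold were 0 in limma under all 19 alternatives. The 1 probe set called over the whole table was a count of 0 with pseudocounts of 1 and 64, the filter on dim probe sets, eBayes without trend or robust, array quality weights, the replicate block and the composition covariate. With each array centred on its median it was 1, but higher and not lower, and of another gene. It was 40 with station as a block, 39 of them lower, and 6 within station 2, and from 0 to 0 when each array was left out in turn. The cause was not tested.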
